A study of Mus musculus with 6 samples.

Results

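Thymocyte migration and egress were followed through 7 genes: the chemokine receptors Ccr4, Ccr7, Ccr9 and Cxcr4, the sphingosine-1-phosphate receptor S1pr1, the transcription factor Klf2 and the semaphorin receptor Plxnd1. They were chosen by symbol from a table of 37867 gene models, of which 13834 had been tested by the authors. Of the 7 genes, 6 were listed under their own symbol, and S1pr1 was listed under its older name Edg1, which the RefSeq gene table pairs with it. All 7 had been tested, and each had 1 model under its name, so no gene was lost to a filter on low values and no choice between models was needed.

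The cells were CD4+CD8+ double-positive thymocytes, sorted to high purity. The mir181a1/b1 knockout mice lacked miR-181a-1 together with miR-181b-1 and were compared with wild type mice, both of the C57bl6 strain, with no treatment named. The age of the mice, the tissue in which the genes were deleted and the origin of each population in 1 or several animals are not given in the sources used. There were 3 sorted populations of each genotype, 6 libraries in all, and the authors deposited 1 pooled FPKM value (a level of fragments per length of transcript and per depth of library) per genotype together with their own test. Values of single libraries were not used here, so no SD can be given and depth is unknown. Each error below is a standard error that the authors' statistic implies, obtained as the ratio on the log2 scale over that statistic. How that statistic was computed is not given, and the spread it reflects may be technical. All ratios are knockout over wild type, and a gene is called changed where its q in the authors' deposited table was under 0.05.

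The model known as the host transcript of the deleted microRNAs, listed under AK076660 and CS444488 at positions 139794044 to 139874930 of mm9 chromosome 1, had 156 FPKM in knockout cells and 3.35 FPKM in wild type cells. It does not measure the mature microRNAs, and whether its counted bases include the deleted stretch is not given, so it is no check of the labels.

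Double-positive thymocytes lie in the thymic cortex, where their antigen receptor is first tested. Cxcr4, the receptor for Cxcl12, and Ccr9, the receptor for Ccl25, hold immature cells in or draw them to the cortex. After positive selection, thymocytes gain Ccr4 and Ccr7, the receptors for Ccl17 and Ccl22 and for Ccl19 and Ccl21, which guide them into the medulla. Plxnd1, a plexin that binds Sema3e, is high in double-positive cells and dampens their response to Ccl25. Mature single-positive cells then switch on Klf2, which drives transcription of S1pr1, and S1pr1 senses the lipid gradient that leads cells out of the thymus into blood.

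The microRNAs removed from these mice recognise transcripts mainly through their seed, taken here as bases 2 to 8 of the mature strand. The mature 5p strands of both deleted genes are shown because their seed sets the letters searched for below. The opposite strands of the same genes were not examined. They are from RefSeq (GRCm38.p6, chromosome 1, plus strand, at chr1:137966468-137966490 and chr1:137966650-137966673), with the seed in capitals.
mmu-miR-181a-5p: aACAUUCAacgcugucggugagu
mmu-miR-181b-5p: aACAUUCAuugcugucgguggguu
Both strands have the same seed, and so do the 5p strands of all 6 miR-181 genes in the RefSeq table, 4 of which lie elsewhere and are not named as deleted in these mice.

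The DNA letters that pair with this seed are TGAATGT. In the 3′ UTRs of the coding transcripts of the 7 genes in the GENCODE M21 annotation of GRCm38, these letters occurred once, in S1pr1. They begin at base 1058 of its 1362 UTR bases. The stretch around them is shown because it is the sole match among the 7 genes; it lies on the minus strand at chr3:115710723-115710752 (GRCm38), with the match in capitals.
S1pr1: ccgtgttaacaccacTGAATGTgtagttct
No match was found in the 3′ UTRs of Ccr4, Ccr7, Ccr9, Cxcr4, Klf2 or Plxnd1. In the reference transcript of each gene, these UTRs ran from 644 bases in Cxcr4 to 3966 bases in Ccr9. Over all coding genes, 15.3% of 20732 had at least 1 match, and of the 4541 genes with a UTR longer than 1 and up to 2 kilobases, the class of S1pr1, 18.7% had one. A match is a description of the sequence and was not tested as a site. Shorter matches and the rest of each transcript were not searched. Whether a gene without this match is a direct target was therefore not tested.

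The 7 genes spanned a wide range of levels, and the order was the same in both genotypes: Ccr9, Cxcr4, Plxnd1, Ccr4, Ccr7, Klf2 and S1pr1. Ccr9 stood at 579 FPKM in knockout cells and 511 FPKM in wild type cells, at percentile 99.8 and 99.7 of the tested models. Cxcr4 stood at 168 FPKM in knockout cells and 214 FPKM in wild type cells, at percentile 98.7 and 98.8. These genes of cortical residence were therefore among the most abundant transcripts of the cells in both genotypes.

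Of the genes of the later steps, Ccr4 stood in the middle range, at percentile 49.2 in knockout cells and 63.5 in wild type cells. Ccr7, Klf2 and S1pr1 were lower. Ccr7 stood at 3.20 FPKM in knockout cells and 3.04 FPKM in wild type cells. Klf2 stood at 0.948 FPKM in knockout cells and 0.924 FPKM in wild type cells. S1pr1 stood at 0.304 FPKM in knockout cells and 0.310 FPKM in wild type cells, at percentile 3.72 and 3.07 of the tested models. From Ccr9 to S1pr1 the FPKM levels spanned 1905-fold in knockout cells and 1645-fold in wild type cells. FPKM is a level per length of transcript, but it takes no account of base composition. Levels of different genes can thus be set against each other only roughly. Without values per library it is also not known which neighbours in the order differ beyond their spread. The nearest neighbours were Ccr4 and Ccr7 in knockout cells, 2.05-fold apart, and Cxcr4 and Plxnd1 in wild type cells, 1.89-fold apart.

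**Figure D1:**
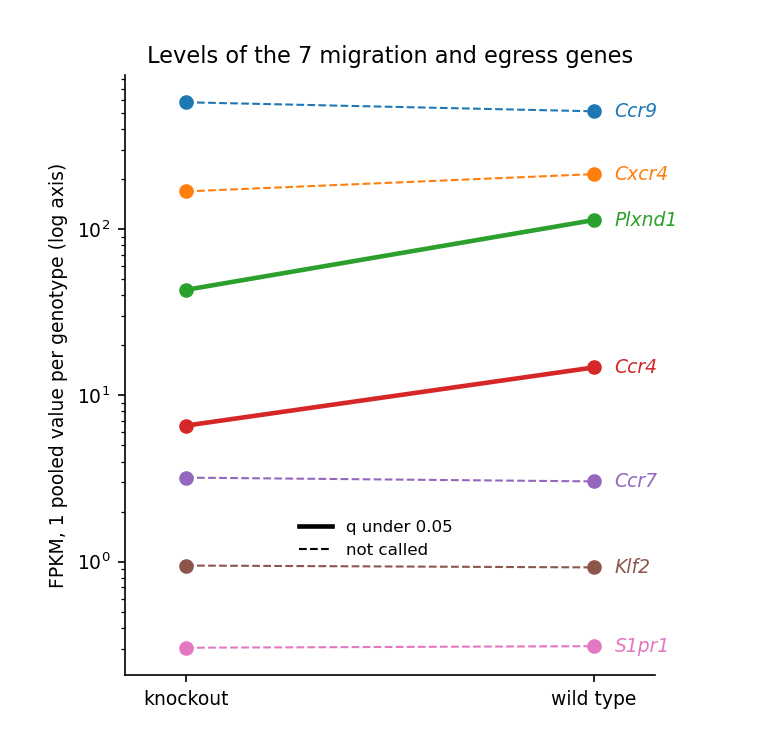
FPKM of the 7 genes in knockout cells (left) and wild type cells (right) on a log axis, each point the authors' pooled value of 3 libraries, with no error bar because single libraries were not used. Solid lines mark the genes with q under 0.05, Plxnd1 and Ccr4, which were lower in knockout cells at 43.1 against 113 and 6.58 against 14.7 FPKM; the dashed lines of the other 5 genes run nearly flat.

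The comparison of the genotypes asked which of these genes differ in thymocytes without the microRNAs. Plxnd1 and Ccr4 were lower in knockout cells, and Ccr9, Cxcr4, Ccr7, Klf2 and S1pr1 did not pass the threshold. Of the 7 genes, 2 were thus called lower and none higher in the authors' deposited table, by q under 0.05, while 17.1% of all tested models were called, 15.3% lower and 1.79% higher. The median log2 ratio of the 7 genes was -0.031, against -0.17 over all tested models. In these sorted populations, fewer cells that carry a transcript and less of it per cell cannot be told apart.

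Plxnd1 fell to 43.1 FPKM in knockout cells, against 113 FPKM in wild type cells. The 2.63-fold lower level corresponds to a log2 ratio of -1.39 with an implied standard error of 0.23 (95% interval -1.84 to -0.95), and the authors' deposited table gave q = 8.18e-08. Its model on chromosome 6, from 115904828 to 115945023 (mm9), covers 40196 bases, close to the 40529 bases of the gene in RefSeq. With the trend along GC content and length taken out, as described further on, Plxnd1 no longer passed, at a log2 value of -0.12. As deposited, the FPKM level of Cxcr4 exceeded that of Plxnd1 by 3.91-fold in knockout cells and 1.89-fold in wild type cells, and that of Ccr9, whose ligand response Plxnd1 is known to dampen, by 13.4-fold in knockout cells and 4.51-fold in wild type cells. These ratios carry the same trend: with it taken out, the log2 values of Cxcr4 and Ccr9 were -0.31 and -0.030, beside the -0.12 of Plxnd1.

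Ccr4 fell to 6.58 FPKM in knockout cells, against 14.7 FPKM in wild type cells. It was 2.24-fold lower, with a log2 ratio of -1.16 and an implied standard error of 0.31 (95% interval -1.76 to -0.56), and the authors' deposited table gave q = 0.00202. Among all tested models it stood at percentile 49.2 in knockout cells and 63.5 in wild type cells. The model lies on chromosome 9 from 114400740 to 114405662 (mm9). Ccr4 and Ccr7, the pair of medullary receptors, lay closer in knockout cells, a difference that was not tested: the FPKM level of Ccr4 exceeded that of Ccr7 by 2.05-fold in knockout cells and 4.85-fold in wild type cells.

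The cortical receptors did not pass. Ccr9 had a log2 ratio of 0.18 with an implied standard error of 0.23 (95% interval -0.26 to 0.62), and the authors' deposited table gave q = 0.698. Its model, on chromosome 9 from 123546024 to 123691083 (mm9), also bears the name AK038272 and spans 145060 bases, against 16247 bases for the gene in RefSeq, so its value may hold reads of more than Ccr9. Cxcr4, on chromosome 1 from 130484775 to 130488876 (mm9), had a log2 ratio of -0.35 with an implied standard error of 0.22 (95% interval -0.78 to 0.085), and the authors' deposited table gave q = 0.323. The interval of Cxcr4 reaches from a level of 0.584 times to 1.06 times the wild type level. Within each genotype, the FPKM level of Ccr9 exceeded that of Cxcr4 by 3.44-fold in knockout cells and 2.39-fold in wild type cells.

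Of the genes of medullary entry and exit, Ccr7, Klf2 and S1pr1 did not pass either, unlike Ccr4, and their intervals were wide. Ccr7, on chromosome 11 from 98998836 to 99020888 (mm9), had a log2 ratio of 0.075 with an implied standard error of 0.36 (95% interval -0.63 to 0.78), and the authors' deposited table gave q = 0.950. Klf2 had a log2 ratio of 0.037 with an implied standard error of 0.52 (95% interval -0.99 to 1.06), and the authors' deposited table gave q = 0.990. S1pr1, the gene with the seed match, had a log2 ratio of -0.031 with an implied standard error of 0.51 (95% interval -1.03 to 0.97), and the authors' deposited table gave q = 0.992. At these low levels a change within those bounds, for Klf2 from 0.504 to 2.09 times the wild type level, was not detectable. The Ccr7 model covers 22053 bases, against 10879 bases for the gene in RefSeq. The S1pr1 model lies on chromosome 3 from 115413356 to 115417965 (mm9). The Klf2 model, on chromosome 8 from 74842392 to 74856081 (mm9), covers 13690 bases, against 2593 bases for the gene in RefSeq. An antisense model, linc-Klf2-AS, is listed over the same span, and the TruSeq RNA kit keeps no strand, so reads of the pair cannot be told apart.

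**Figure D2:**
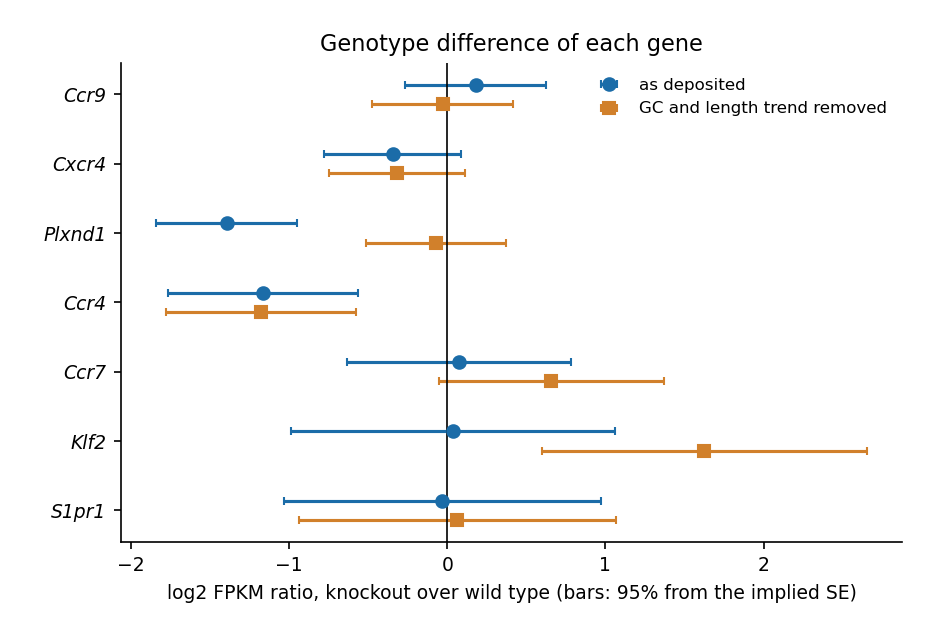
Log2 FPKM ratio of each gene, knockout over wild type, as deposited (circles) and after removal of the trend with GC content and length over all tested coding genes (squares), with bars of 95% from the implied standard error. Ccr4 lies at -1.16 as deposited and at -1.18 after the removal, Plxnd1 at -1.39 and -0.072, and Klf2 at 0.037 and 1.63.

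The deposited ratios of this table run with the base composition of the transcripts, and the 7 genes lie at very different places along it. Over 9849 tested coding genes sorted into 10 groups by transcript GC content, the median log2 ratio was 0.29 in the group with the lowest GC and -1.39 in the group with the highest. Plxnd1, at 60.8% GC, lies in that last group, where 67.4% of 985 genes were called lower in the authors' deposited table. Its ratio had 49.5% of the group below it. Ccr4, at 46.7% GC, lies in the fourth group, where 2.64% of 985 genes were called lower and the median log2 ratio was -0.020. Of that group, 18 genes had a lower ratio than Ccr4.

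The genes that were not called also took different places among genes of like composition. Klf2, at 61.6% GC, lies in the same group as Plxnd1, and 972 of 985 genes there had a lower ratio than its 0.037. Ccr7, at 53.5% GC, had 92.5% of its group below it. Cxcr4, at 46.1% GC, had 13.3% of its group below it, while Ccr9, at 43.8% GC, and S1pr1, at 48.8% GC, had 50.1% and 60.4%. Thus Ccr9, S1pr1 and Plxnd1 stood near the middle of genes of like composition, Ccr4 at the low end, and Klf2 at the high end. These places rest on the GC content of the reference transcripts. The models of Ccr9, Ccr7 and Klf2 span more than their genes, so the GC content of the reads counted there is not known. The same limit holds for their values with the trend removed.

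**Figure D3:**
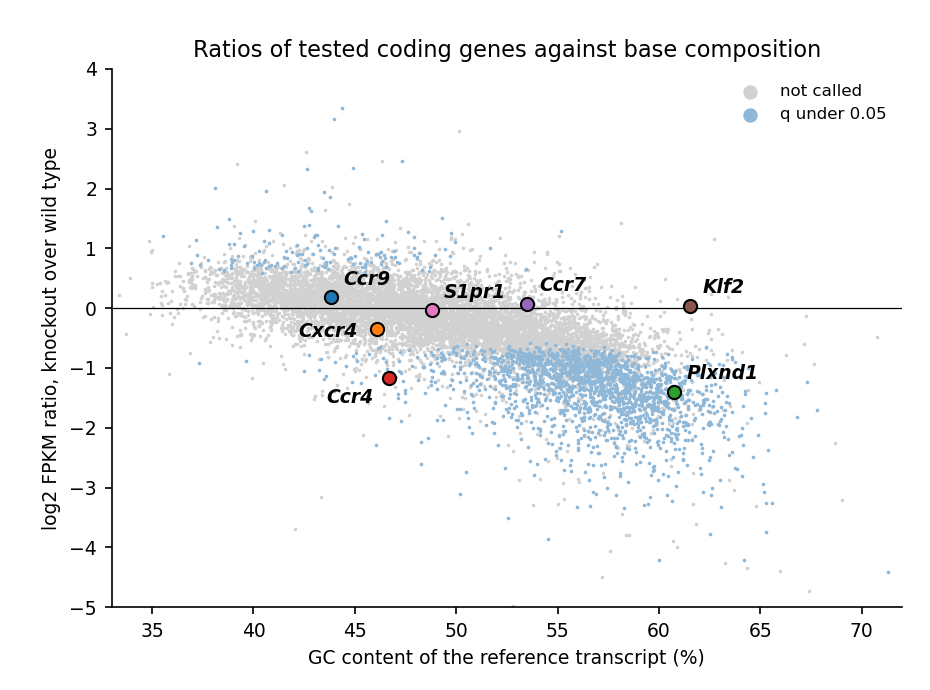
Log2 FPKM ratio, knockout over wild type, against the GC content of the reference transcript for 9842 tested coding genes (7 more lie outside the axes), with those at q under 0.05 in blue and the 7 migration genes as large points. Plxnd1 lies within the cloud at its GC content, Ccr4 lies near the lower edge at its own, and Klf2 near the upper edge.

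When the trend along GC content and length of the transcript was taken out, Ccr4 stayed past the threshold and Plxnd1 did not. What remains of each log2 ratio was set against the standard error implied by the authors' statistic and adjusted by Benjamini-Hochberg. In simulated data this recovered 41% of changes of 1 on the log2 scale and 95% of changes of 2. A call lost here or in the lists below therefore does not show that a gene is unchanged. In a fit to the 8908 coding genes whose mean level reached 1 FPKM, the log2 value of Ccr4 was -1.18 (adjusted p = 0.012 by the authors' error), where 0.977% of genes were called lower and 0.808% higher. Plxnd1 had a value of -0.12 (adjusted p = 1.000 by the authors' error). Ccr7 had a value of 0.65 (adjusted p = 0.583), Cxcr4 of -0.31 (adjusted p = 0.774) and Ccr9 of -0.030 (adjusted p = 1.000), again by the authors' errors. Klf2 and S1pr1 lie under that minimum. In a fit over all 9849 tested coding genes, where 0.883% were called lower and 0.772% higher, Klf2 had a value of 1.63 (adjusted p = 0.081) and S1pr1 of 0.065 (adjusted p = 1.000), by the authors' errors. The value of Ccr4 depends on which transcript is expressed: a shorter coding transcript of 1382 bases and 52.5% GC gave -0.58 (adjusted p = 0.528 by the authors' error) in place of the 2805 bases and 46.7% GC of the reference transcript. The model spans 4923 bases, between the 4260 and 6247 genomic bases of the 2 transcripts, so the table does not settle which it holds.

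Genes with the most similar pair of levels were looked up for each of the 7 among the 9849 tested coding genes. Likeness was taken as the smallest distance in log2 FPKM over the 2 genotypes. Those of Plxnd1 were Psmb6, a proteasome subunit, at 41.4 FPKM in knockout cells and 113 FPKM in wild type cells, and Prrc2a at 41.3 against 110 FPKM. Those of Ccr4 were Pcyt2, an enzyme of phospholipid synthesis, at 6.41 FPKM in knockout cells and 14.8 FPKM in wild type cells, and Ss18l2 at 6.78 against 14.6 FPKM, which had q = 0.896 in the authors' deposited table. Ccr9 was closest to B2m and Ptprc, Cxcr4 to Sash3 and Znrf1, Ccr7 to Eno3 and Parp16, Klf2 to Cybrd1 and Alg6, and S1pr1 to Liph and Rab31. With 2 values per gene, such likeness is a description only.

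The wider pathway was read from 9 lists with 145 genes in the table, of which 87 had been tested. Of these, 18 were called lower (20.7%) and 3 higher (3.45%) in the authors' deposited table, against 15.3% and 1.79% of all tested models, and their median log2 ratio was -0.25, against -0.17 over all tested models. With the GC and length trend taken out over all tested coding genes, 85 of them had a value, and 1 was called higher and 1 lower.

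Few other chemokine receptors were present. Of 19 in the table, 17 had not been tested, and Ccr2, at 0.412 FPKM in knockout cells and 0.564 FPKM in wild type cells, and Cxcr6, at 0.571 against 0.442 FPKM, did not pass. The summed level of the 19 was 1.32 FPKM in knockout cells and 1.72 FPKM in wild type cells. Each of Ccr9, Cxcr4, Ccr4 and Ccr7 stood above that sum, Ccr7 least so, at 3.20 against 3.04 FPKM. Ccr9 and Cxcr4 held most of the chemokine receptor transcript in these cells. Of the ligands, 7 were in the table and 2 had been tested, with none called. Ccl25, the ligand of Ccr9, stood at 2.98 FPKM in knockout cells and 3.07 FPKM in wild type cells, and Ccl22, a ligand of Ccr4, at 0.246 against 0.388 FPKM. Sema3e, the ligand of Plxnd1, was listed at 0 in both genotypes, and Cxcl12 was listed at 0 in knockout cells and at 0.0208 FPKM in wild type cells.

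Among the genes of sphingosine-1-phosphate, 2 of 6 tested were called lower and none higher, with a median log2 ratio of -0.067. Over all tested models, 15.3% were called lower and 1.79% higher, with a median of -0.17. S1pr4, a lymphocyte receptor of the same lipid, fell to 1.60 FPKM in knockout cells, against 5.79 FPKM in wild type cells (log2 -1.86, implied standard error 0.38, with q = 4.39e-05 by the authors' deposited table). Sphk2, a kinase that makes the lipid, fell to 3.45 FPKM in knockout cells, against 12.9 FPKM in wild type cells (log2 -1.91, implied standard error 0.43, with q = 0.000213 by the authors' deposited table). The lipid phosphatase Sgpp1 stood at 26.3 FPKM in knockout cells and 18.9 FPKM in wild type cells, and the lyase Sgpl1, which breaks the lipid down, at 7.65 against 6.73 FPKM. Neither passed, at q = 0.205 and q = 0.757 in the authors' deposited table. S1pr2 stood at 2.03 FPKM in knockout cells and 2.10 FPKM in wild type cells, above S1pr1 in both. Sphk2, at 58.6% GC, went to a log2 value of -0.77 (adjusted p = 0.579 by the authors' error) with the trend removed over all tested coding genes, and S1pr4 had no value because its reference transcript is longer than its model allows.

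In the KLF family, 1 of 9 other tested members was called higher, 1 lower, and 7 did not pass, with a median log2 ratio of -0.16. The shares of all tested models were 1.79% higher and 15.3% lower, with a median of -0.17. Klf6 rose to 29.5 FPKM in knockout cells, against 15.7 FPKM in wild type cells (log2 0.91, implied standard error 0.24, with q = 0.00183 by the authors' deposited table). Klf13 fell to 10.7 FPKM in knockout cells, against 31.3 FPKM in wild type cells (log2 -1.55, implied standard error 0.50, with q = 0.0173 by the authors' deposited table). Klf3, the most abundant member, stood at 75.8 FPKM in knockout cells and 79.3 FPKM in wild type cells. With the trend removed over all tested coding genes none of the 9 was called, with Klf6 at 0.68 (adjusted p = 0.132 by the authors' error).

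Of 15 tested regulators and partners of egress, 1 was called higher, 2 lower and 12 did not pass, with a median log2 ratio of 0.16. Among all tested models, 1.79% were called higher and 15.3% lower, with a median of -0.17. Mapk7, the kinase ERK5 that acts upstream of Klf2, fell to 5.62 FPKM in knockout cells, against 13.7 FPKM in wild type cells (by the authors' deposited table, q = 0.00047). Mef2d, a factor of the same route, fell to 45.8 FPKM in knockout cells, against 104 FPKM in wild type cells (by the authors' deposited table, q = 0.00226). Stk4, a kinase needed for thymocyte exit, stood at 138 FPKM in knockout cells and 124 FPKM in wild type cells and did not pass. Mef2a stood at 104 FPKM in knockout cells and 89.9 FPKM in wild type cells, and its test is listed as failed. Mapk7 and Mef2d lie in the group of highest GC content, and their log2 values with the trend removed over all tested coding genes were -0.16 and 0.21.

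Of the 4 tested plexins and neuropilins other than Plxnd1, 2 were called lower and none higher, with a median log2 ratio of -0.32, and of 8 tested semaphorins 3 were called lower. For both lists, the shares of all tested models were 15.3% lower and 1.79% higher, with a median of -0.17. Plxna1 fell to 0.344 FPKM in knockout cells, against 1.49 FPKM in wild type cells (log2 -2.11, implied standard error 0.37, with q = 9.30e-07 by the authors' deposited table). Plxnb1 fell to 0.524 FPKM in knockout cells, against 1.25 FPKM in wild type cells (by the authors' deposited table, q = 0.0028). Nrp1, a coreceptor of plexins, stood at 15.8 FPKM in knockout cells and 10.3 FPKM in wild type cells, and neither it nor Plxnc1 passed. Plxnd1 was thus the most abundant plexin in the table in both genotypes. The semaphorins called lower were Sema4d, Sema7a and Sema4g, and none was higher, with a median log2 ratio of -0.78. Sema4d stood at 50.6 FPKM in knockout cells and 85.7 FPKM in wild type cells, Sema7a at 17.8 against 31.0 FPKM and Sema4g at 1.41 against 3.15 FPKM. Sema4b stood at 4.78 FPKM in knockout cells and 7.07 FPKM in wild type cells and did not pass. With the trend removed over all tested coding genes, Plxna1 was the sole gene of these 2 lists still called, at -1.26 (adjusted p = 0.043 by the authors' error).

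Below the receptors, 5 of 30 tested signalling genes were called lower, 1 higher, and 24 did not pass, with a median log2 ratio of -0.27. Over all tested models, 15.3% were lower and 1.79% higher, with a median of -0.17. The G protein subunit Gng2 rose to 7.42 FPKM in knockout cells, against 2.04 FPKM in wild type cells (log2 1.86, implied standard error 0.31, with q = 1.13e-07 by the authors' deposited table). Coro1a, an actin regulator required for thymocyte exit, fell to 144 FPKM in knockout cells, against 429 FPKM in wild type cells (log2 -1.58, implied standard error 0.24). Others called lower were the G protein subunit Gnb2 at 32.5 FPKM in knockout cells and 107 FPKM in wild type cells, in a model that also bears the name Epo, the membrane linker Ezr at 157 against 315 FPKM, and the myosin Myh9 at 79.2 against 169 FPKM. Was, at 44.7 FPKM in knockout cells and 69.6 FPKM in wild type cells, was the fifth. Arhgdib, the most abundant of the list, stood at 650.0 FPKM in knockout cells and 828 FPKM in wild type cells and did not pass, and nor did the main inhibitory G protein subunit Gnai2, at 228 against 346 FPKM. With the trend removed over all tested coding genes, Gng2 was the sole member still called, at 1.69 (adjusted p = 1.85e-05 by the authors' error), and Coro1a went to -0.41.

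Among genes that desensitise or move receptors, 3 of 11 tested were called lower and none higher, with a median log2 ratio of -0.54. The shares of all tested models were 15.3% lower and 1.79% higher, with a median of -0.17. Grk6, a kinase that phosphorylates active receptors, stood at 37.5 FPKM in knockout cells and 64.3 FPKM in wild type cells (by the authors' deposited table, q = 0.0136). Rgs14, which speeds G protein shut-off, stood at 32.5 against 61.5 FPKM (by the authors' deposited table, q = 0.00329), and the endocytic GTPase Dnm2 at 70.5 against 115 FPKM (by the authors' deposited table, q = 0.0387). The receptor kinase Grk2 stood at 102 FPKM in knockout cells and 148 FPKM in wild type cells, and Rgs10 at 119 against 110 FPKM, and neither passed. None of the list was called after removal of the trend.

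**Figure D4:**
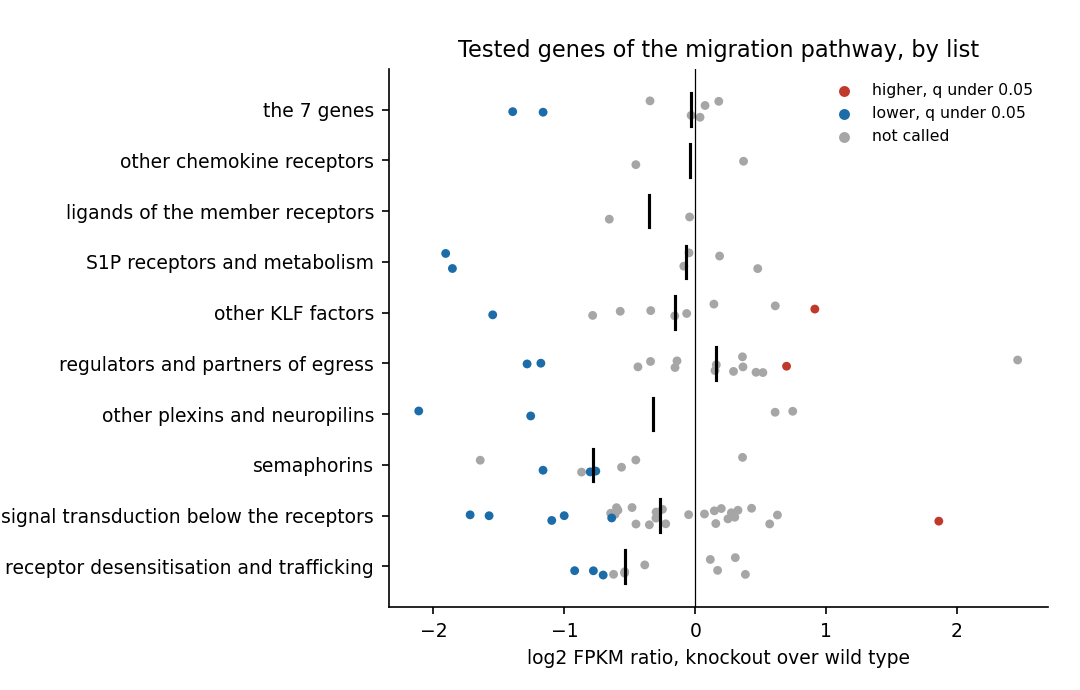
Log2 FPKM ratio, knockout over wild type, of each tested gene in the 7 migration genes and the 9 pathway lists, with red for genes called higher, blue for genes called lower, grey for those not called and a black line at each list's median. Lower calls occur among the 7 genes and in 7 of the 9 lists, and the higher calls include Klf6 and Gng2.

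The labelled cell type was checked against its markers. Cd4 stood at 907 FPKM in knockout cells and 732 FPKM in wild type cells, Cd8a at 836 against 906 FPKM, Cd8b1 at 1241 against 1683 FPKM, Rag1 at 1193 against 1220 FPKM and Dntt at 882 against 1085 FPKM. Rag2 stood at 162 FPKM in knockout cells and 134 FPKM in wild type cells and Cd1d1 at 17.1 against 24.2 FPKM. Of 9 double-positive markers, Ptcra was called lower and the other 8 did not pass, where 15.3% of all tested models were called lower and 1.79% higher. Ptcra stood at 9.59 FPKM in knockout cells and 26.1 FPKM in wild type cells, and with the trend removed over all tested coding genes its log2 value was -0.41 and it was not called.

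Markers of mature single-positive cells, the stage at which Klf2, S1pr1 and Ccr7 are known to be switched on, summed to 796 FPKM in knockout cells and 794 FPKM in wild type cells over 14 genes. Without Cd52, the most abundant, the other 13 summed to 534 FPKM in knockout cells and 386 FPKM in wild type cells, and the median log2 ratio of the 12 tested was 0.13. Of those 12, 2 were called higher, Gzma among them, and Cd52 was called lower, against the same shares of all tested models, and none of the 14 was at 0. Cd52 stood at 263 FPKM in knockout cells and 408 FPKM in wild type cells, Gzma at 55.2 against 31.3 FPKM, and Gimap6, which did not pass, at 310.5 against 241 FPKM. With the trend removed over all tested coding genes, Gzma was still called, at a log2 value of 1.06, and Cd52 turned to 0.26 and was not called. Zbtb7b, a defining factor of CD4 cells, stood at 0.0168 FPKM in knockout cells and 0.207 FPKM in wild type cells and had not been tested.

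Markers of other cells were low apart from Cd79b and Pecam1. The B cell markers summed to 15.95 FPKM in knockout cells and 20.4 FPKM in wild type cells, nearly all from Cd79b, with the other 4 at 0.242 and 0.336 FPKM, of which Cd79a made up 0.178 and 0.212 FPKM. The 9 myeloid and dendritic markers summed to 3.70 FPKM in knockout cells and 7.08 FPKM in wild type cells. Lyz2 stood at 1.61 FPKM in knockout cells and 2.57 FPKM in wild type cells and Cd68 at 0.573 against 1.49 FPKM, and neither passed, while Itgam was called lower at 1.02 against 2.11 FPKM. The 10 stromal and endothelial markers summed to 52.5 FPKM in knockout cells and 57.9 FPKM in wild type cells, of which Pecam1 made up 51.5 and 55.5 FPKM. The other 9 summed to 0.995 and 2.47 FPKM. Among them, the endothelial markers Cdh5 and Kdr stood at 0.00478 against 0.0236 FPKM and at 0.00559 against 0.0110 FPKM. Epcam was called lower, at 0.932 FPKM in knockout cells and 2.30 FPKM in wild type cells, and Col1a1 stood at 0.0257 against 0.0668 FPKM. In knockout cells Foxn1 and Pdgfra were at 0, and in wild type cells Pdgfra was. The 4 red cell markers summed to 0.883 FPKM in knockout cells and 2.29 FPKM in wild type cells, with Hbb-b1 at 0.561 against 1.1498 FPKM, Alas2 at 0.103 against 0.176 FPKM, and Hba-a2 called lower at 0.213 against 0.948 FPKM. With the trend removed over all tested coding genes, Itgam, Epcam and Hba-a2 were not called, at log2 values of -1.003, -0.80 and -0.64. The part of such cells in the values of Ccr4, Ccr7 or the other low genes was not tested.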

How the data were processed

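RNA of 6 libraries, 3 per genotype, was sequenced after TruSeq library preparation, per the labels' protocols, with extraction by Trizol or a column kit, which of the pair is not given per library. TopHat2 and mm9 are named in the submitters' processing notes; how reads were counted and tested is not given in the sources used. The authors deposited 1 FPKM value per genotype. Per the file headers the table also holds a log2 ratio that runs wild type over knockout, a statistic (a score), and p-values and q-values. Its sign was reversed here. The deposited significance mark equalled q under 0.05 in every model.

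Genes were matched by symbol, then by RefSeq synonym (GRCm38.p6). Coordinates are the authors' in mm9, and none was converted. One reference transcript per coding gene came from GENCODE M21, and genes whose transcript exceeded 1.2 times their model's span were left out. The trend was fitted with statsmodels 0.14.6 (Python 3.11.15) as a robust regression on cubic splines, 5 pieces each for GC content and log2 length, and tested on simulated data. Residuals over the implied standard error gave p-values, adjusted by Benjamini-Hochberg. FPKM takes no account of base composition and is relative to the rest of the library. Alternatives were other q thresholds, centring, a minimum level, pseudocounts and the trend; its fit to all tested coding genes and the other transcript were added after seeing the data.

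The 7 genes and the lists were chosen with earlier results of these data known. Named genes are the 7, up to 4 called genes per direction and the 3 most abundant of each list, the 2 nearest genes in level, and markers of double-positive cells; the remaining genes were chosen after their values were seen. Promoter windows of RefSeq (250 bases before to 50 after the start) were found for Ccr4, Ccr9, Cxcr4, Klf2 and Plxnd1. On either strand, GTAAACA occurred in none of the 5 and in 3.65% of 32851 windows, CACCC in all but Plxnd1 and in 57.5%, and CANNTG in Ccr4 and Ccr9 and in 72.3%. The values of 4 genes of the lists are not reported here, though they are included in the counts and sums.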

Additional observations from a re-analysis of the deposited data

How the results depend on the processing

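The 2 lower calls, Plxnd1 and Ccr4, kept their direction and their side of the threshold at q under 0.01, at q under 0.10, with ratios centred on the median (-1.23 and -0.996), among models of at least 1 FPKM, and no gene of the 7 was called higher under any alternative. With pseudocounts of 0.1 and 1 only the size of the ratio was recomputed, and the direction was kept. Summing all models of a symbol left the values as they were, since each had 1. With the GC and length trend removed among coding genes of at least 1 FPKM, Klf2 and S1pr1 had no value. Of the others, 1 (Ccr4) was called lower, Plxnd1 went to -0.12, and Ccr9 turned to -0.030. In the fits added after seeing the data, over all tested coding genes, 1 was again called lower, Plxnd1 went to -0.072, Ccr9 turned to -0.029 and S1pr1 to 0.065, and with another coding transcript in place of the reference one Ccr4 went to -0.58, while Ccr9 kept its direction, at 0.12. Centring turned S1pr1 to 0.13. Over the pathway lists, 18 lower and 3 higher calls became 0 and 1 with the trend removed among coding genes of at least 1 FPKM. Over all tested coding genes they became 1 and 1, and 6 were higher after centring. A call lost with the trend removed does not show that the gene is unchanged. The removal takes out any effect of the genotype that runs with GC content or length as well; the cause of the trend was not tested. No paired analysis was possible because the table holds 1 value per genotype, and for the same reason no library could be left out. Depth is unknown, so what it limits cannot be given. The implied standard errors of Klf2 and S1pr1 were 0.52 and 0.51, against a median of 0.35 over tested models.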
